A study of Mus musculus with 24 samples.

Results

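Oocyte to granulosa cell communication was described through 8 genes, the secreted factors Gdf9, Bmp15, Bmp6, Fgf8 and Rspo2, the receptor gene Kit, and the gap junction genes Gja4 and Gja1. They were chosen by name, as rows of the RNA-seq table that carry these symbols, and all 8 were found among its 16572 gene names. The RNA came from class IV oocytes, which were the largest of the culture (60 to 70 µm across in the labels) and were grown from the ovaries of 7-day-old mice. The labels give the strain as C57BL/6 Barb, whereas the study's methods describe crossed mice, of C57 Black6 bred with SV129, so the oocytes need not come from an inbred strain. Dissociated ovarian cells were plated on gelatine without intact follicles, with FSH and EGF in the medium, and theca-like cells supported the oocytes at first. Culture lasted 9 days for the IV 5% O2 oocytes and 14 days for the IV 20% O2 oocytes, and the medium was changed more often in 5% O2, and the study's text, unlike the labels, gives a smaller size range for class IV in 20% O2, so oxygen, culture time, feeding and oocyte size cannot be told apart. Both groups share the strain and the age of the mice. The bisulfite libraries (RRBS and PBAT) were not used here.

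As background, the growing oocyte and the granulosa cells around it depend on each other in both directions. The oocyte secretes growth factors of the TGF-beta, FGF and R-spondin families that act on granulosa cells, and granulosa cells present KIT ligand to the KIT receptor on the oocyte. Small molecules pass between them through gap junctions, which are built mainly from connexin 37 (Gja4) on the oocyte side and connexin 43 (Gja1) between granulosa cells.

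Each condition had 2 libraries but is given as 1 column, taken here as both libraries pooled. A value therefore has no SD, no difference has a replicate check and no p-value is given. Levels are RPM, in which the reads of a gene are set against all reads of its column, recovered from the log2 values, and pairs of values give IV 5% O2 first. The depth came to 132185260 reads at 5% O2 and 40875359 at 20% O2. Of these, 109629353 and 29754908 fell on genes, and RPM does not correct for a difference in this share. The limit that no reads would allow, 3 reads, equals 0.0227 and 0.0734 RPM. Intervals are exact 95% Clopper-Pearson or Poisson intervals on the reads. They cover the counting error of reads only, and what they compare is the libraries, not the conditions. The reads carry no molecular identifiers, so the intervals may be too narrow for the sampling of molecules. All 12 oocyte markers examined were present in both columns, and their sum was 10469 and 14929 RPM.

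Of the 8 genes, Kit differed most among those with at least 1100 reads in each column, with a 3.02-fold higher level in IV 20% O2, whereas Gdf9, Bmp15 and Rspo2 each differed by at most 1.20-fold between the columns as deposited. Bmp6, Fgf8 and Gja4 were 1.45- to 1.67-fold higher in IV 5% O2. Gja1 had few reads, 209 in IV 5% O2 and 3 in IV 20% O2. Each log2 difference is the log2(RPM + 1) value of IV 5% O2 less that of IV 20% O2, a scale on which changes of low genes look smaller than they are. A filter on the mean of both columns, set at 1 RPM, kept 7 of the 8 genes and left out Gja1, whose mean was 0.827 RPM. A level at least 2-fold lower at 5% O2 was seen for 1 of the 7 genes (Kit), where 9.22% of the 14704 genes tested were as much lower, and a level at least 2-fold higher for 0 of 7, where 18.7% of all genes tested were as much higher. Without the filter, 1 of 8 was lower and 1 of 8 (Gja1) was higher, against 9.25% and 20.2% of 16572 genes. The median log2 difference of the 7 genes was -0.02, and that of all genes tested was 0.26. Scaling the columns by their median ratio moved the latter to -0.03 and quantile normalization to 0.06, so differences are also given relative to the median gene. With median-ratio scaling 13.6% of all genes were at least 2-fold lower and 12.0% higher, with quantile normalization 12.5% and 12.3%, and Kit remained the 1 of 7 genes past 2-fold under either.

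**Figure D1:**
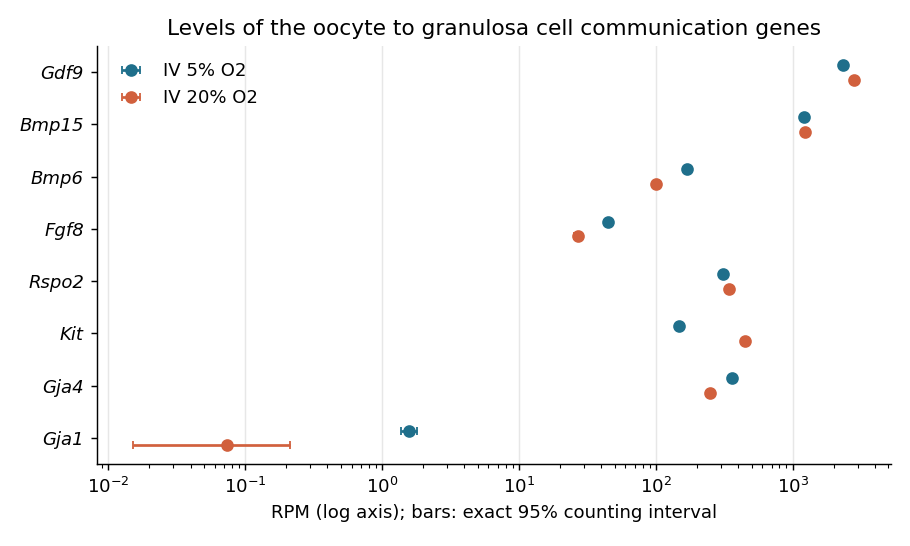
Level of each of the 8 genes in the IV 5% O2 and IV 20% O2 columns, in RPM on a log axis, with 1 pooled value per column and exact 95% counting intervals as bars. Kit sits at 148 RPM in IV 5% O2 and at 448 RPM in IV 20% O2, and Gja1 lies far below the other genes, with 209 and 3 reads.

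Promoter windows of 5 of the 8 genes (Bmp15, Bmp6, Kit, Gja4 and Gja1) were found in the RefSeq table of GRCm38.p6, which covers 250 bases before to 50 bases after the start of a gene. Gdf9, Fgf8 and Rspo2 had no entry. Shown are the windows of Kit and Gja1, which differed most between the columns, and of Gja4, the other gap junction gene. That of Bmp15 is shown too, which differed least as deposited but not with either scaling. All run 5′ to 3′ on the strand of the gene, with matches to CANNTG in capitals. CANNTG is the E-box, the core bound by helix-loop-helix factors such as the oocyte factors FIGLA, SOHLH1 and SOHLH2. The Kit window is at chr5:75574737-75575036 (plus strand, the first of 2 entries), Gja1 at chr10:56377050-56377349 (plus), Bmp15 at chrX:6320675-6320974 (minus) and Gja4 at chr4:127313990-127314289 (minus).
Kit: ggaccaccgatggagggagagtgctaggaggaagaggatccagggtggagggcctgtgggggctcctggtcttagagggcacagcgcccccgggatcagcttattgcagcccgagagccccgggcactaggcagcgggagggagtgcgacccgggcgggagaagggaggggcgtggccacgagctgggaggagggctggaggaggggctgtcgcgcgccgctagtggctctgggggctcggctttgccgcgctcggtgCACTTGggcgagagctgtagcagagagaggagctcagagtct
Gja1: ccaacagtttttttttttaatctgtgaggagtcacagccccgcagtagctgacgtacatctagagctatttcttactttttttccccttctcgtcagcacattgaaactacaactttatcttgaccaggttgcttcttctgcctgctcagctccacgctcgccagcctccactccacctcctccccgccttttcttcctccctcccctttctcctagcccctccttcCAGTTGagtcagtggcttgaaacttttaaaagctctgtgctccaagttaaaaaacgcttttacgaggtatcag
Bmp15: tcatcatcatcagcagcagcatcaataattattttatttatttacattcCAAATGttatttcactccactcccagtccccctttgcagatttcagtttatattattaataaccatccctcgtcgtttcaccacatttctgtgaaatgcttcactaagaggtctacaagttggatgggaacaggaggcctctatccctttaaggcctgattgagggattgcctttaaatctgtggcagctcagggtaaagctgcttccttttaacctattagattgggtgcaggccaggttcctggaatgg
Gja4: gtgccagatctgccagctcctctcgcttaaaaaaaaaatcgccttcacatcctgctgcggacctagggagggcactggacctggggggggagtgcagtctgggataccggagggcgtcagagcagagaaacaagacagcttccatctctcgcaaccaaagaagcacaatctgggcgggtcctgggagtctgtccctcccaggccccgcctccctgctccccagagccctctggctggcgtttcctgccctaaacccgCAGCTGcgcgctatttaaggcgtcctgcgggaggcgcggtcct

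Each of these 4 windows held 1 CANNTG and that of Bmp6 held 2, and 72.3% of the 32851 windows of the table hold at least 1. TAATTG or TAATTA, letters that the oocyte homeobox factor NOBOX is known to bind, occurred once in the Bmp15 window and in none of the other 4, and 12.4% of all windows hold a match on either strand. ACGTG or GCGTG, the core letters of the hypoxia response element, occurred 1 time each in the windows of Kit and Gja1 and 3 times in that of Bmp6, where 2 of the matches overlap a CANNTG. They occurred in 43.8% of all windows and in neither the Bmp15 nor the Gja4 window. The GC content was 69.0% for Kit, 62.0% for Gja4, 47.7% for Gja1 and 41.7% for Bmp15. These matches describe the letters of the windows, and binding was not measured.

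Gdf9 encodes growth differentiation factor 9, which drives granulosa cell growth and cumulus expansion, and maps to chromosome 11 (GRCm38, 53431023 to 53437904). It reached 2346 RPM at 5% O2, from 310111 reads, and 2805 RPM at 20% O2, from 114654 reads. Per kilobase of exon, this made Gdf9 the most abundant of the 8 genes in both columns, at place 5 of 16540 genes in IV 5% O2 and at place 7 in IV 20% O2. Its log2 difference of -0.26 was -0.52 relative to the median gene with the columns as deposited. Median-ratio scaling gave -0.58 for Gdf9, but quantile normalization turned its sign, with a log2 difference of 0.20.

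Bmp15 encodes bone morphogenetic protein 15, the X-linked partner of GDF9, and maps to chromosome X (6314107 to 6320721). It had 1209 RPM at 5% O2, from 159766 reads, and 1224 RPM at 20% O2, from 50018 reads. The RPM ratio of IV 5% O2 to IV 20% O2 was 0.988 (interval 0.978 to 0.998), the ratio nearest to 1 among the 8 genes. Relative to the median gene its log2 difference was -0.28, and it lay below the median gene with median-ratio scaling (-0.31) and quantile normalization (-0.54) as well. Per kilobase of exon Bmp15 ranked at place 41 in IV 5% O2 and at place 46 in IV 20% O2.

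The products of Gdf9 and Bmp15 can act as a dimer, and their ratio within a column does not change when a column is scaled by 1 factor. Per kilobase of exon, the ratio of Gdf9 to Bmp15 was 2.92 in IV 5% O2 (interval 2.91 to 2.94) and 3.45 in IV 20% O2 (interval 3.42 to 3.49). The intervals did not overlap, so the ratio was lower in IV 5% O2 by more than counting error, while the spread between libraries is not known. Gdf9 stood above Bmp15 in both columns also without division by length, at ratios of 1.94 and 2.29.

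Bmp6 encodes another bone morphogenetic protein of the oocyte and maps to chromosome 13 (38345107 to 38500302). It had 168 RPM at 5% O2, from 22208 reads, and 101 RPM at 20% O2, from 4111 reads, a ratio of 1.67 (interval 1.62 to 1.73). Its log2 difference was 0.73, or 0.48 relative to the median gene, and 0.42 and 0.54 with the scalings. The ratio of Bmp15 to Bmp6 per kilobase of exon was 9.17 in IV 5% O2 (interval 9.04 to 9.30) and 15.5 in IV 20% O2 (interval 15.0 to 16.0). Bmp6 shares 224 bases, 5.74% of the exonic bases of Bmp6, with Txndc5 on the opposite strand (chromosome 13, 38500079 to 38528824). Txndc5 had 266 RPM at 5% O2 and 253 RPM at 20% O2. The library kit marks strand, but whether the counting used it is not given in the sources used here, so the part of Txndc5 reads in the Bmp6 value was not tested.

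Fgf8 encodes a fibroblast growth factor with which mouse oocytes promote glycolysis in cumulus cells, and maps to chromosome 19 (45736798 to 45742915). It was the lowest of the secreted factors, with 44.5 RPM at 5% O2, from 5882 reads, and 26.9 RPM at 20% O2, from 1100 reads. The ratio was 1.65 (interval 1.55 to 1.77), an interval that overlaps that of Bmp6. The log2 difference of Fgf8 was 0.70, or 0.45 relative to the median gene, and it stayed positive with median-ratio scaling (0.39) and quantile normalization (0.54).

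Rspo2 encodes R-spondin 2, a secreted factor that strengthens WNT signalling in the receiving cell, and maps to chromosome 15 (43020794 to 43170826). It had 311 RPM at 5% O2, from 41062 reads, and 344 RPM at 20% O2, from 14077 reads. Its log2 difference was -0.15, or -0.41 relative to the median gene, and -0.47 and -0.38 with the scalings. Rspo2 was thus slightly lower in IV 5% O2 while Fgf8 was higher, and the ratio of Rspo2 to Fgf8 per kilobase of exon was 1.84 in IV 5% O2 (interval 1.79 to 1.89) against 3.38 in IV 20% O2 (interval 3.18 to 3.60). By the longest transcript the ratios were 2.44 and 4.48, and without division 6.98 and 12.8.

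Kit encodes the receptor tyrosine kinase through which KIT ligand promotes the growth and survival of the oocyte, and maps to chromosome 5 (75574916 to 75656722). It had 148 RPM at 5% O2, from 19610 reads, and 448 RPM at 20% O2, from 18295 reads, so the less deeply sequenced column held nearly as many Kit reads. The level in IV 20% O2 was 3.02-fold that in IV 5% O2 (interval 2.96 to 3.08). The log2 difference of Kit was -1.59, or -1.84 relative to the median gene, and 4.32% of the genes tested had a lower difference. Median-ratio scaling gave -1.90 for Kit and quantile normalization -1.75. Of the 12 oocyte markers, 2 (Zp2 and Zp3, zona pellucida genes) were also at least 2-fold lower in IV 5% O2, beside 9.22% of all genes tested, and 3 of 12 were with median-ratio scaling. Their median was -0.02, and 9 of the 12 lay below the median gene (0.26). In RNA from pools of oocytes, fewer oocytes that express Kit and less Kit RNA per oocyte cannot be told apart. Per kilobase of exon, Kit stood at place 679 of 16540 genes in IV 20% O2 and at place 3016 in IV 5% O2. Annotated exons of Kit span 8911 bases over 8 transcripts, and the value of the gene does not separate the full receptor from shorter forms.

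Gja4 encodes connexin 37, the gap junction protein that the oocyte contributes, and maps to chromosome 4 (127311421 to 127314039). It had 358 RPM at 5% O2, from 47346 reads, and 248 RPM at 20% O2, from 10117 reads, a ratio of 1.45 (interval 1.42 to 1.48). Its log2 difference was 0.53, or 0.27 relative to the median gene, and 0.21 and 0.29 with the scalings. Gja4 was the third most abundant of the 8 genes per kilobase of exon in both columns. Gja4 and Kit, which serve contact with granulosa cells in different ways, went in opposite directions. The ratio of Gja4 to Kit per kilobase of exon was 12.8 in IV 5% O2 (interval 12.6 to 13.0) and 2.92 in IV 20% O2 (interval 2.85 to 3.0). The values depend on the length used, being 7.51 and 1.72 by the longest transcript and 2.41 and 0.553 without division, where Kit stands above Gja4 in IV 20% O2.

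Gja1 encodes connexin 43, which joins granulosa cells to each other and is also made by stromal cells, and maps to chromosome 10 (56377330 to 56402513). It had 1.58 RPM at 5% O2, from 209 reads, and 0.0734 RPM at 20% O2, from 3 reads. The ratio of the RPM values was 21.5, with a counting interval of 7.27 to 105 because of the 3 reads. On the log2(RPM + 1) scale the difference was 1.27, and it was 0.38 with a pseudocount of 5 RPM and 3.28 with a pseudocount of 0.1 RPM. Gja4 exceeded Gja1 per kilobase of exon 1379-fold in IV 5% O2 (interval 1204 to 1587) and 20528-fold in IV 20% O2 (interval 7022 to 99560). By the longest transcript these folds were 523 and 7783, and without division by length 227 and 3372. Of the 8 annotated transcripts of Gja1, 2 hold a stretch of at least 100 bases that is at least 90% identical to transcripts of 482 other genes, so part of its few reads may not be separable from theirs. No such match was found for the other genes except the overlap of Bmp6 with Txndc5.

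Markers of the cells around the oocyte were low, and those of theca and stroma were, like Gja1, higher in IV 5% O2. Of 18 theca and stroma markers the table lists 10, and all 10 were higher in IV 5% O2, with a sum of 45.3 RPM at 5% O2 and 5.48 RPM at 20% O2. Cyp11a1, a steroid synthesis gene, had 16.4 and 0.122 RPM, and the connective tissue genes Col1a2, Dcn and Vim had no reads in IV 20% O2. Of 16 granulosa markers the table lists 6, which summed to 41.3 RPM at 5% O2 and 29.8 RPM at 20% O2, with 5 of 6 higher in IV 5% O2. These counts of markers higher at any size stand beside 63.0% of all 16572 genes. Among the granulosa markers the gonadotropin receptor gene Fshr had no reads in IV 5% O2 and 6 reads in IV 20% O2, and Inha, an inhibin subunit gene, had 0.673 RPM and no reads. Kitl, the KIT ligand gene of granulosa cells, had 10.2 RPM at 5% O2 and 5.58 RPM at 20% O2. The ratio of Kit to Kitl per kilobase of exon was 9.69 (interval 9.17 to 10.3) in IV 5% O2 and 53.2 (interval 46.7 to 60.9) in IV 20% O2, compared with 15.7 and 86.5 by the longest transcript and 14.6 and 80.2 without division. The part of other cells in the Gja1 and Kitl values was not tested. Endothelial markers (3 of 8 listed) summed to 61.0 and 36.1 RPM, macrophage markers (4 of 8 listed) to 24.9 and 22.6 RPM, and the 1 erythroid marker listed of 6 was at 1.32 and 1.57 RPM.

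**Figure D2:**
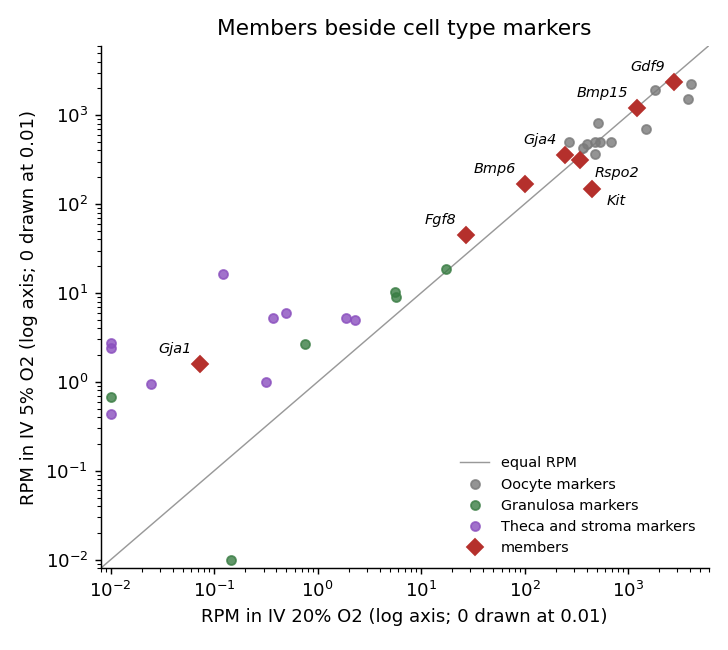
RPM in IV 5% O2 against RPM in IV 20% O2, both on log axes, for the 8 genes (diamonds) and for markers of oocytes, granulosa cells and theca and stroma (circles, 1 pooled value per gene and column, with 0 drawn at the edge). Gja1, at 1.58 and 0.0734 RPM, lies above the line of equal RPM, and Kit, at 148 and 448 RPM, lies below it. Above the line are also all 10 theca and stroma markers and 5 of 6 granulosa markers. Of all 16572 genes, which are not drawn, 63.0% were higher in IV 5% O2.

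**Figure D3:**
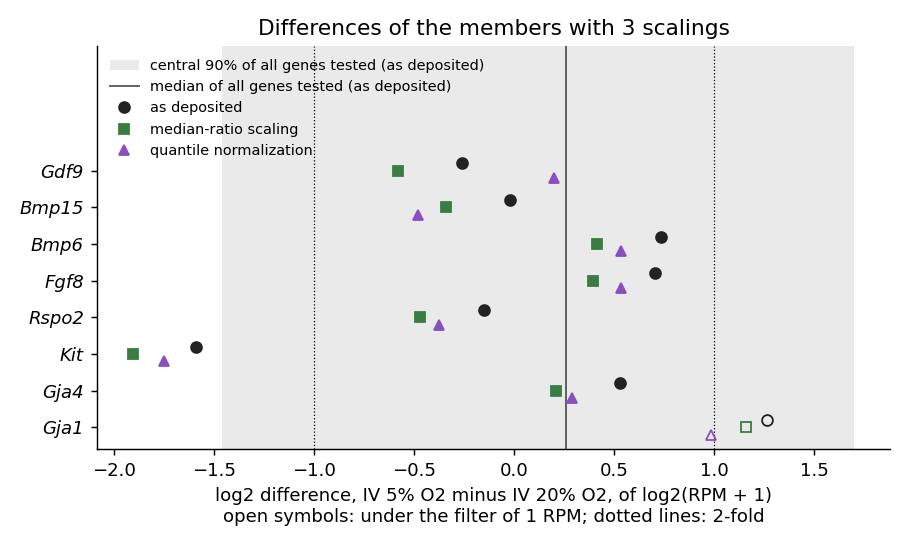
Log2 difference (IV 5% O2 minus IV 20% O2 on log2(RPM + 1)) of the 8 genes as deposited and under both scalings, over the central 90% of all genes tested (-1.46 to 1.70) in grey and their median (0.26) as a line. The band and the line are those of the columns as deposited, and none was drawn for the scaled columns. Kit lies below this band with each scaling, Gdf9 changes sign with quantile normalization (0.20), and Gja1, drawn open, is under the filter.

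Ordered by level per kilobase of exon, the genes in IV 5% O2 were Gdf9 (1155 RPM per kb), Bmp15 (395), Gja4 (213), Rspo2 (60.8), Bmp6 (43.1), Fgf8 (33.0), Kit (16.6) and Gja1 (0.154 RPM per kb). In IV 20% O2 the order was Gdf9 (1381 RPM per kb), Bmp15 (399.9), Gja4 (147), Rspo2 (67.4), Kit (50.2), Bmp6 (25.8), Fgf8 (19.9) and Gja1 (0.00716 RPM per kb). The orders differ in that Kit stood above Bmp6 and Fgf8 in IV 20% O2 and below them in IV 5% O2. They were the same when the longest transcript was used as the length. Without division by length, Kit (148 RPM) stood above Fgf8 (44.5 RPM) and below Bmp6 (168 RPM) in IV 5% O2. In IV 20% O2 Kit (448 RPM) then also stood above Rspo2 (344 RPM) and Gja4 (248 RPM). No neighbours in either order per kilobase of exon had overlapping counting intervals, but the spread between libraries is not known. In the order of the RPM ratios, the intervals of Fgf8 and Bmp6 overlapped and those of all other neighbours did not.

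**Figure D4:**
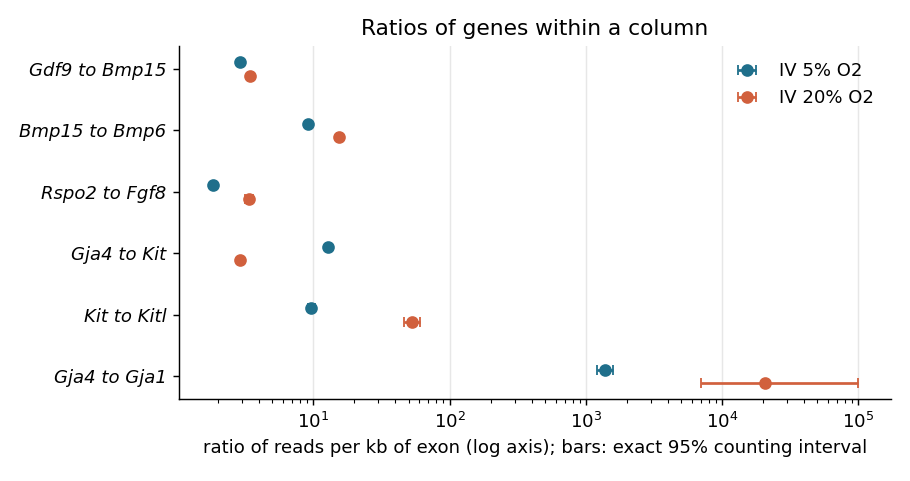
Ratio of reads per kilobase of exon between genes of the same column, on a log axis, for IV 5% O2 and IV 20% O2, with exact 95% counting intervals as bars. The ratio of Gdf9 to Bmp15 moves least, from 3.45 in IV 20% O2 to 2.92 in IV 5% O2, and that of Kit to Kitl goes from 53.2 in IV 20% O2 to 9.69 in IV 5% O2.

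The pathways in which the 8 genes act were followed through 8 lists of partner genes, of which 101 genes passed the filter. Among the 101, 23 (22.8%) were at least 2-fold higher at 5% O2 and 4 (3.96%) at least 2-fold lower, beside 18.7% and 9.22% of all genes tested. The counts were 15 and 6 with median-ratio scaling and 19 and 6 with quantile normalization. Because the filter is on the mean, 5 of the 23 (Dusp6, Fzd1, Inhba, Pcsk4 and Smad9) passed it only through IV 5% O2 and 1 of the 4 (Fzd4) only through IV 20% O2, so the filter partly fixed these calls. The same holds for 776 of the 2753 higher and 379 of the 1356 lower genes among all tested. The median log2 difference of the partner genes was 0.32, beside 0.26 for all genes.

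Of the other secreted factors, 15 of 32 passed the filter, and 4 of them were at least 2-fold higher and 0 lower in IV 5% O2. Bmp5, of the same family as Bmp6, had 58.6 RPM at 5% O2 and 11.2 RPM at 20% O2, a log2 difference of 2.29. The others were the growth factor genes Pdgfa (17.0 and 6.41 RPM) and Egf (44.9 and 18.1 RPM) and the activin subunit gene Inhba (2.63 and 0.758 RPM), and these 3 were under 2-fold with median-ratio scaling. Tgfb2 had the lowest difference, -0.67, with 147 and 234 RPM. The median of the list was 0.17. Of the proprotein convertases, which cut the precursors of GDF9 and BMP15, 5 of 7 passed the filter, and Pcsk4 was 2-fold higher at 1.87 RPM against 0.171 RPM (7 reads), but under 2-fold with quantile normalization (0.92). Pcsk7 had the lowest difference, with 9.77 and 10.5 RPM, a log2 difference of -0.10.

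Of the BMP and TGF-beta receptor genes, 9 of 12 passed the filter. Bmpr1b, a type I receptor gene for BMP ligands, was at least 2-fold higher at 5% O2 with 124 RPM against 49.3 RPM, and with median-ratio scaling its log2 difference was 0.996. Tgfbr1, the type I receptor gene used by TGF-beta and GDF9, was at least 2-fold lower with 35.6 RPM at 5% O2 and 79.6 RPM at 20% O2. The other 7 were under 2-fold, and the median of the list was 0.23. Of the SMAD pathway genes, 14 of 16 passed the filter, with 4 at least 2-fold higher and 0 lower. These were Smad9 (5.39 and 0.514 RPM) and Id1, Id2 and Id3, the inhibitors of differentiation that BMP signalling is known to induce. Id2 had 19.6 RPM at 5% O2 and 3.91 RPM at 20% O2, Id1 had 11.4 and 3.52 RPM, and Id3 had 35.5 and 14.9 RPM. Their log2 differences were 2.07, 1.45 and 1.20, and with median-ratio scaling that of Id3 was 0.90. Smad5 had the lowest difference of the list, -0.60, with 70.6 and 108 RPM.

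Of the FGF receptor and feedback genes, 10 of 14 passed the filter, with 3 at least 2-fold higher and 0 lower. Fgfr2 had 23.6 RPM at 5% O2 and 4.70 RPM at 20% O2, a log2 difference of 2.11, whereas Fgfr1 had 16.2 and 23.9 RPM, a difference of -0.53. Dusp6 and Etv5, which FGF signalling is known to induce, had 5.33 against 0.979 RPM and 17.3 against 6.63 RPM, with log2 differences of 1.68 and 1.26. With median-ratio scaling Etv5 was at 0.97. The median of the list was 0.45.

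Of the R-spondin and WNT reception genes, 15 of 18 passed the filter, with 4 at least 2-fold higher and 2 lower. Lgr4, a receptor gene for R-spondins, had 24.0 and 53.9 RPM, a log2 difference of -1.14. The WNT receptor gene Fzd4 had 0.635 RPM (84 reads) in IV 5% O2 and 3.13 RPM (128 reads) in IV 20% O2. Its relatives Fzd8 (47.6 and 16.8 RPM), Fzd2 (13.3 and 4.48 RPM) and Fzd1 (3.90 and 0.905 RPM) were higher, as was the co-receptor gene Lrp5 (161 and 68.9 RPM), which was just under 2-fold with both scalings (0.89 and 0.9995). The median of the list was 0.44.

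Of the KIT signalling genes, all 21 passed the filter, and 4 were at least 2-fold higher and 0 lower in IV 5% O2, where Kit itself was lower. Lyn, a SRC family kinase gene, had 17.6 RPM at 5% O2 and 2.10 RPM at 20% O2, a log2 difference of 2.58. The PI3K regulatory subunit gene Pik3r2 had 27.0 and 6.43 RPM. Akt1, a kinase gene downstream of PI3K, had 217 RPM at 5% O2 and 79.7 RPM at 20% O2, and Akt2 had 90.2 and 41.1 RPM, under 2-fold with both scalings (0.80 and 0.92). The ubiquitin ligase gene Cbl, which acts on activated KIT, had the lowest difference, -0.99, with 30.0 and 60.6 RPM, followed by the kinase gene Pdpk1 at -0.95, with 123 and 239 RPM. Both were past 2-fold with median-ratio scaling (-1.30 and -1.27) and with quantile normalization (-1.17 and -1.16), so that each scaling gave 3 higher and 2 lower genes in this list. The median of the list was 0.26, the same as that of all genes.

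Of the connexins and their partners, 12 of 26 passed the filter, with 2 at least 2-fold higher and 1 lower. The connexin 32 gene Gjb1 had 10.3 and 2.84 RPM, a log2 difference of 1.56. The connexin 26 gene Gjb2 had 10.1 and 23.3 RPM, a log2 difference of -1.13. The median of the list was 0.26.

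**Figure D5:**
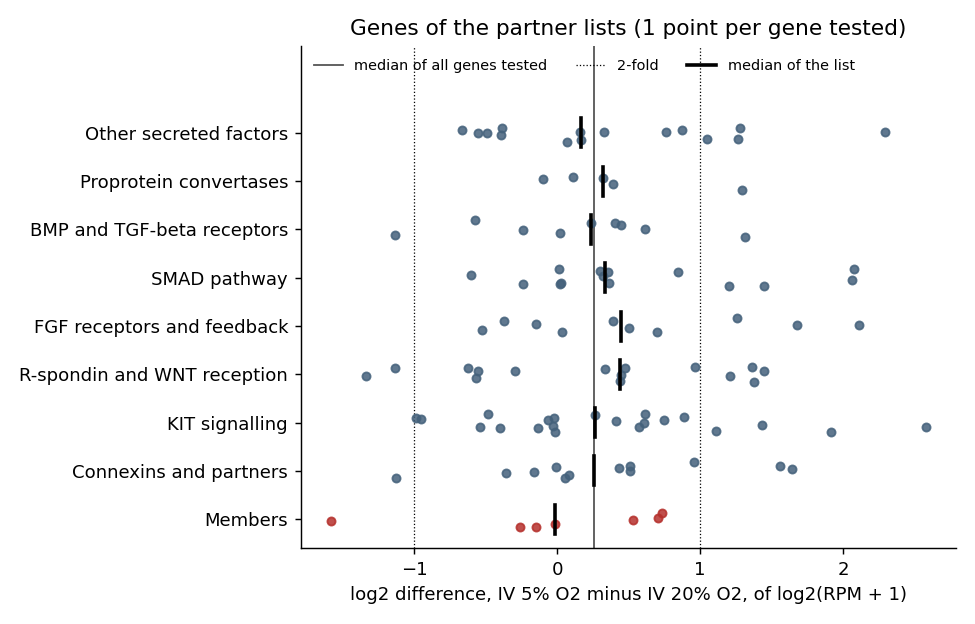
Log2 difference (IV 5% O2 minus IV 20% O2 on log2(RPM + 1)) of each gene that passed the filter in the 8 partner lists and of 7 of the 8 communication genes at the bottom, 1 point per gene, with list medians as bars, the median of all genes (0.26) as a line and 2-fold as dotted lines. Kit (-1.59) is the lowest point of the plot and Lyn (2.58) the highest.

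The genes nearest to each of the 8 in level were found by Euclidean distance on log2(RPM + 1) over the 2 columns, which gives a likeness over only 2 values. Fgf8 had Letm1 (44.4 and 27.0 RPM) at a distance of 0.0076, and 42 genes lay within 0.1 of it. For Bmp6 the nearest was Mrpl9, at 0.038, with 18 genes within 0.1. Gja4 had Abcf3 at 0.015 and Rspo2 had Setd4 at 0.028. For Bmp15, Trip12 at 0.099 was the 1 gene within 0.1, and for Gja1, Emilin1 at 0.021 was the nearest of 65. Gdf9 and Kit had 0 genes within 0.1. The nearest to Gdf9 was Dnmt1, at 0.32 (2799 and 2450 RPM), and the nearest to Kit was the histone gene H3c7, at 0.18 (132 and 427 RPM).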

How the data were processed

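RNA-seq of class IV oocytes in 5% O2 and 20% O2 was used, with 2 libraries per condition. The authors aligned reads to mm10 with TopHat (TopHat2 2.0.9 in the submitters' processing notes), merged them in SeqMonk over the exons of an oocyte annotation. They deposited log2 values in 1 column per condition, taken here as both libraries pooled. How the libraries were combined is not stated in the sources used here. The values carry the name RPKM, and the study's methods describe a correction for length. However, 99.4% (IV 5% O2) and 99.9% (IV 20% O2) of them are whole multiples of 1 read within 0.02 reads. The step is the same for every gene, so they were read as RPM without a correction for length. Genes without reads are listed at 0.9 of 1 read and were set to 0. Another value column (1) matched no sample label and was left out. Of 16572 names, 18 had several rows, and the row with the highest mean was kept.

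The planned limma test needs a value per library, so the columns were compared on log2(RPM + 1), with a limit of 2-fold, for the 14704 genes whose mean reached 1 RPM. Lengths are exonic bases of GENCODE vM21 (GRCm38), matched for 16540 names, 16383 of them, with all 8 members, by exact coordinates. The members, lists and tests were chosen with earlier results of these data known. The text names the members, the highest and lowest gene of each partner list, its genes at least 2-fold apart where 4 or fewer, and the nearest gene by level with a symbol that is not an identifier. Of the genes this rule selects, 1 is not reported here. The other genes named, all chosen after their values were seen, are markers of surrounding cells, the oocyte markers Zp2 and Zp3, Pdpk1 and Txndc5. Alternatives were both scalings, no filter or one at 5 RPM, a pseudocount of 0.1 or 5, summed rows and other lengths. The procedure was also run on simulated reads with known folds and counting error alone. The simulation held no spread between libraries, so it does not test the 2-fold calls against that spread. Calculations used numpy 2.4.6, scipy 1.17.1 and pandas 2.3.3 in Python 3.11.15, and figures matplotlib 3.10.9.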

Additional observations from a re-analysis of the deposited data

How the results depend on the processing

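No paired analysis was possible because each condition is 1 pooled column that carries no replicate numbers; limma, the replicate block and leaving out libraries were not run for the same reason. Kit was lower by at least 2-fold under each of the 7 alternatives run, from -1.90 to -1.56. The number of members at least 2-fold higher was 1 without a filter in place of 0, since Gja1 then counts. The median of the members, -0.02, turned to 0.26 without a filter and to 0.20 with quantile normalization, where Gdf9 also reversed (0.20), and was -0.34 with median-ratio scaling, which applies 1 factor per column. The cause was not tested for quantile normalization. Of all genes, 2753 were at least 2-fold higher and 1356 lower. A pseudocount of 5 gave 1202 and 706, and the higher genes numbered 1691 when the filter was set at 5 RPM, 1758 after median-ratio scaling and 1809 after quantile normalization. Their share of higher genes moved from 67.0% to 46.7% and 49.6% with the scalings. The ratio of Gdf9 to Bmp15 was 3.31 in IV 5% O2 and 3.91 in IV 20% O2 by the longest transcript, and 1.94 and 2.29 without division by length. The ratio of Gja4 to Gja1 was 523 in IV 5% O2 and 7783 in IV 20% O2 by the longest transcript, and 227 and 3372 without division. The other values of single members were held against the longer arm of the counting interval of the log2 RPM ratio. By this measure 13 moved by more and kept their direction, and 42 did not. The 42 include Gja1 with a pseudocount of 0.1 (3.28) and of 5 (0.38), against 1.27, because its interval is wide. The 3 reads of Gja1 in IV 20% O2 limit each value that rests on them.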
